A study of Caenorhabditis elegans with 20 samples.

Results

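The cytochrome P450 genes of Caenorhabditis elegans were examined in 20 libraries of messenger RNA from whole animals. Members were all genes whose symbol is cyp followed by a family number and a subfamily letter, joined to the tables by WormBase gene identifier. The rule found 74 genes, all protein-coding and all present in both tables, of 39341 genes in all. The gene daf-9, which also encodes a P450, has another kind of symbol and was not a member.

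Cytochrome P450 enzymes hold a haem group and use electrons passed on by a reductase to put an oxygen atom into a substrate. Some members of the family make or modify the animal's own lipids and sterols, and others act on drugs, plant compounds and bacterial products taken up with food. In the worm many of the second kind are expressed in the intestine, and nuclear hormone receptors regulate several of them.

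The study asked how the nuclear hormone receptor gene nhr-114 and the methionine synthase gene metr-1 act on the methionine/S-adenosylmethionine (Met/SAM) cycle, with 2 biological replicates per group. Every strain, wild type included, carried the reporter wwIs24[Pacdh-1::GFP;unc-119(+)], and each library pooled staged whole animals labelled L4 larvae. In experiment 1 (8 libraries), wild type animals (strain VL749) and Δnhr-114 mutants with the allele nhr-114(gk849) grew for 48 hours on Escherichia coli OP50 on soy peptone plates either untreated or with 25 mM methionine. In experiment 2 (12 libraries), wild type, Δmetr-1 animals with the allele metr-1(ok521), and metr-1(ww52);Δnhr-10 animals with the alleles metr-1(ww52) and nhr-10(tm4695) were fed E. coli HT115, holding either the empty vector or a clone for RNAi of nhr-114, for 48 hours on plates supplemented to 20 nM vitamin B12. The last strain differs from wild type in both genes, and their parts cannot be told apart in it.

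Depth ran from 1389117 to 24482380 reads per library in experiment 1 and from 2542155 to 16025927 in experiment 2, so that 3 reads, the limit that a count of 0 allows, stood for 0.123 to 2.16 CPM (the count of a gene scaled to the library total). These limits cover counting error only. In every group the spread of the replicates exceeded counting error, and the labelled stage was not uniform: the mean log2(CPM + 1) of 11 oocyte markers ran from 4.61 to 8.53 in experiment 1 and from 3.93 to 8.61 in experiment 2. The level of nhr-114 went against the label in the replicate 1 libraries labelled nhr-114 RNAi, at 340 CPM in wild type, 193 CPM in Δmetr-1 and 391 CPM in the strain metr-1(ww52);Δnhr-10, whereas replicate 2 was at 2.30, 7.94 and 3.605 CPM. Every direction given for RNAi below therefore rests on the labels. The paper reports that the rise of Met/SAM cycle genes in metr-1 mutants depends on nhr-114. On RNAi the cycle gene metr-1 was at 30.3 and 45.7 CPM in Δmetr-1, against 372 and 468 CPM on vector. For the other mutant strain it was 130 and 116 CPM on RNAi, against 555 and 462 CPM on vector. Wild type libraries held 94.5 and 73.7 CPM on RNAi and 59.8 and 69.4 CPM on vector. Whether the RNAi took effect in replicate 1 was not tested. In Δnhr-114, nhr-114 was at 0.409 to 0.703 CPM, against 5.41 to 36.6 CPM in wild type of the same experiment.

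The family lies mostly on chromosome V, which holds 41 of the 74 genes, with 12 on chromosome II, 7 each on IV and X, 6 on III and 1 on I. The largest families are cyp-33 with 18 genes, cyp-13 with 13, cyp-35 with 10 and cyp-34 with 8. Tandem arrays are common, and 41 genes lie within 5 kb of another member, in 12 clusters. The largest cluster holds the 8 genes cyp-13A1 to cyp-13A8 on chromosome II (9779181 to 9807569, WBcel235). Arrays of related copies are where reads can be split between genes by the counting, so values of neighbours with similar sequence are uncertain.

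P450 transcripts were few. The 74 genes together took 194 to 404 CPM of a library, and the median member was at 0.682 to 1.65 CPM. Testing required that a gene reach 5 CPM or more in 2 or more libraries of an experiment, which 19 members met in experiment 1 and 26 in experiment 2, 18 of them in both. A further 47 met it in neither, and 15 stayed below 1 CPM in every library. Of the 26 in experiment 2, 6 met it only through the mutant groups on nhr-114 RNAi (cyp-13A5, cyp-32B1, cyp-33C7, cyp-33C9, cyp-34A8 and cyp-37A1), so these had to be higher there than elsewhere, and counts over the tested members are not evidence of a direction of the family.

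**Figure D1:**
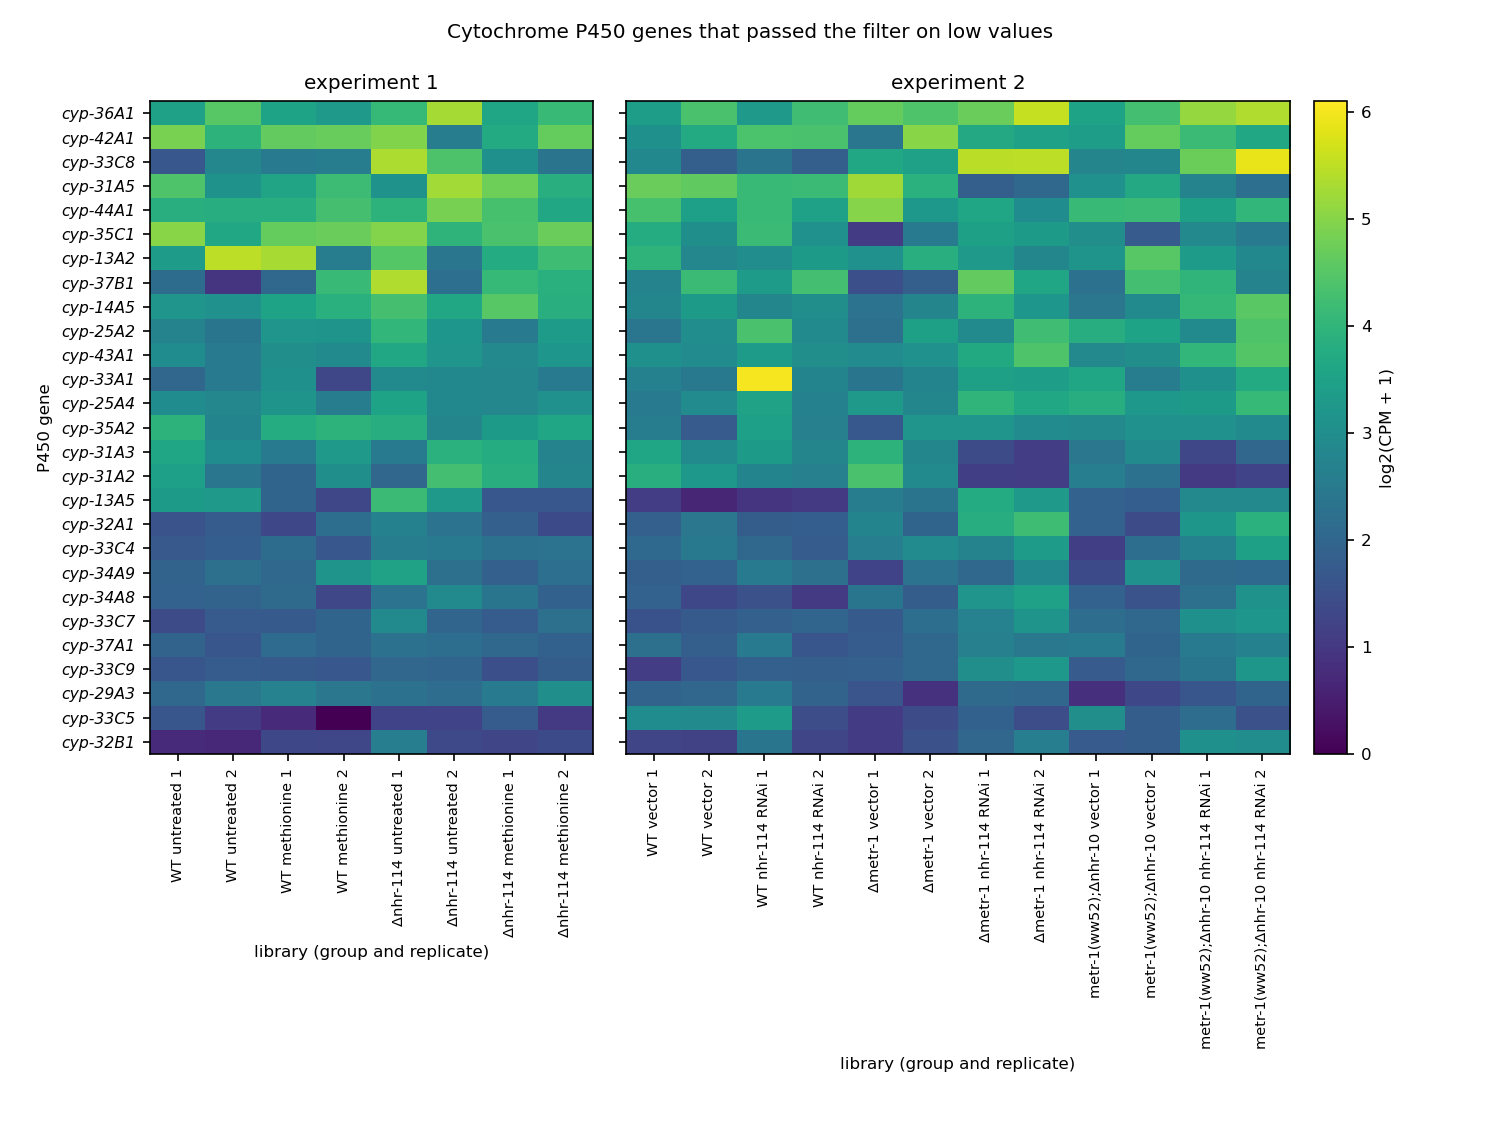
Levels of the 27 P450 genes that met the filter on low values in either experiment, as log2(CPM + 1), with 1 column per library and genes ordered by their mean. cyp-33C8 is brightest in the mutants on nhr-114 RNAi and in untreated Δnhr-114, the 3 cyp-31A genes are dark in the same RNAi libraries, and a single library of wild type on nhr-114 RNAi holds the brightest cell, cyp-33A1 at 64.0 CPM.

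The most abundant members included enzymes of several types. In experiment 1 the means over 8 libraries were 22.7 CPM for cyp-35C1, 20.3 for cyp-42A1, 19.1 for cyp-13A2, 17.5 for cyp-31A5, 16.6 for cyp-36A1 and 16.3 for cyp-44A1. In experiment 2 the means over 12 libraries were 22.9 CPM for cyp-36A1, 18.3 for cyp-33C8, 14.8 for cyp-42A1, 14.3 for cyp-44A1, 13.9 for cyp-31A5 and 12.1 for cyp-33A1. These levels come from reads at the 3′ ends of transcripts, without a term for gene length. Replicates of 1 group often lay as far apart as these genes did from each other: cyp-42A1 was at 4.26 and 31.3 CPM in Δmetr-1 on vector, and cyp-13A2 was at 9.33 and 44.3 CPM in untreated wild type.

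Grouped by family name, 42 members were placed with the CYP2-type enzymes (families cyp-14 and cyp-33 to cyp-36), which include most of the xenobiotic-inducible genes of the worm. A further 19 are CYP3-type (cyp-13, cyp-25 and cyp-43), 11 are CYP4-type (cyp-29, cyp-31, cyp-32, cyp-37 and cyp-42), the group that holds fatty acid hydroxylases, 1 is of the mitochondrial type (cyp-44A1) and cyp-23A1 was left ungrouped. The summed level of the CYP2-type genes was 166 and 197 CPM in Δmetr-1 on nhr-114 RNAi and reached 148 and 213 CPM in the metr-1(ww52);Δnhr-10 libraries of the same treatment. It was 77.2 to 92.2 CPM in the 6 vector libraries, and 169 and 73.2 CPM in wild type on nhr-114 RNAi. The mutant RNAi libraries thus lay above all vector libraries, and 1 of the wild type RNAi libraries lay among them. Marker sums were taken in the same libraries. The sum of 8 intestine markers was 4657 to 5292 CPM in the mutants on RNAi and 4979 to 6795 CPM on vector. It was 4804 and 7389 CPM in wild type on RNAi. Of these 8 markers 0 were called on RNAi against vector in either mutant (median log2 changes -0.14 and -0.07). The sum of 13 sperm markers was 117 to 191 CPM in the mutants on RNAi and 929 to 1626 CPM on vector. The sum of 6 yolk genes on RNAi was 3245 and 5518 CPM for Δmetr-1, 345 and 3423 CPM for the other mutant and 295 and 125 CPM for wild type, and it was 64.0 to 3264 CPM on vector, with 6 of 6 positive in each mutant (median log2 changes 2.90 and 2.71) and 0 called. No yolk gene was at 0, the yolk sums on RNAi and vector overlapped, and the part of these marker levels in the P450 sums was not tested. In experiment 1 the CYP2-type sum was 182 and 137 CPM in untreated Δnhr-114 and 89.0 to 112 CPM in the other 6 libraries. The CYP4-type sum showed no such separation, at 57.9 to 67.0 CPM in the mutants on RNAi and 42.9 to 88.2 CPM on vector. The sums were not tested, and in whole animals fewer cells of a type and less RNA per cell cannot be told apart.

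The response to nhr-114 RNAi within each metr-1 mutant was compared with vector in the same strain, and P450 genes moved in both directions. A gene was called by limma at a Benjamini-Hochberg adjusted p under 0.01 over all genes tested and a fold change over 1.5, on the scale log2(CPM + 1), which understates changes of low genes. In Δmetr-1, 3 of 26 tested members were called, all 3 lower, where 12.5% of all 11543 genes tested were called (11% lower and 1.52% higher). In metr-1(ww52);Δnhr-10, 1 of 26 was called, higher, where 4.76% of all genes were called (1.39% higher and 3.38% lower). In wild type the same RNAi called no member and none of the 11543 genes (0%), with 0 members and 1.22% of genes at an unadjusted p under 0.05, and neither edgeR nor DESeq2 on the recovered reads called any gene (0). At 3 of 26, the share of members called in Δmetr-1 was near that background. Of the 26, 14 members in Δmetr-1 and 12 in the other mutant were at an unadjusted p under 0.05, where 42.2% and 30.6% of all genes were.

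The 3 called members in Δmetr-1 are the whole cyp-31A subfamily of the annotation. CYP-31A2 and CYP-31A3 are known to act in making the lipid-rich layer of the eggshell and in the polarity of the embryo. The copies are closely alike and lie apart on chromosome IV (cyp-31A2 at 11403961 to 11406091, cyp-31A3 at 4761049 to 4762885 and cyp-31A5 at 13401289 to 13403842, all on the forward strand, WBcel235), so the division of reads among them is uncertain, and cyp-31A5 also overlaps Y62E10A.19 on the opposite strand.

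Summed over the subfamily, the level in Δmetr-1 was 70.2 and 26.6 CPM on vector, and it was 5.42 and 5.41 CPM under nhr-114 RNAi. The sum in metr-1(ww52);Δnhr-10 was 16.9 and 22.3 CPM on vector and 8.15 and 8.05 CPM on RNAi. In wild type it was 49.9 and 38.3 CPM on vector and 31.4 and 28.1 CPM on RNAi. The RNAi libraries lay below the vector libraries of their strain in all 3 strains, with the widest gap in Δmetr-1.

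Among single genes, cyp-31A5 was at 36.3 and 13.98 CPM in Δmetr-1 on vector and at 2.62 and 3.10 CPM on RNAi. Its log2 change was -2.62 (SE 0.42), with a limma adjusted p = 0.00201, and the groups did not overlap. For cyp-31A2 the levels were 19.5 and 6.58 CPM on vector and 1.17 and 1.15 CPM on RNAi. The groups did not overlap, and the log2 change was -2.52 (SE 0.44), with a limma adjusted p = 0.00293. For cyp-31A3 they were 14.5 and 5.99 CPM on vector against 1.63 and 1.15 CPM on RNAi, with a change of -2.13 on the log2 scale (SE 0.46) and a limma adjusted p = 0.00822. In metr-1(ww52);Δnhr-10 the changes were -0.91, -1.31 and -1.01 for cyp-31A5, cyp-31A2 and cyp-31A3, and none was called (limma adjusted p = 0.175, 0.0754 and 0.169). The changes were not shown to differ between strains, as a direct comparison of the mutants was not run.

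Germline markers moved in the same libraries. Beside the low sperm marker sums given above, 10 of 12 tested sperm markers were called lower in Δmetr-1 and 9 of 12 in metr-1(ww52);Δnhr-10. Of 11 oocyte markers 6 were called lower in Δmetr-1 but 0 in the strain metr-1(ww52);Δnhr-10. Their summed level overlapped, at 456 to 2470 CPM in the mutant RNAi libraries and 423 to 4825 CPM on vector. Their mean log2(CPM + 1) was 3.93 and 4.66 in Δmetr-1 on RNAi, below the 5.15 to 8.61 of the vector libraries. In metr-1(ww52);Δnhr-10 it was 4.34 and 5.71 on RNAi against 5.15 and 5.55 on vector, and overlapped. No sperm or oocyte marker was at 0 in any library. With the oocyte score and the cuticle and molting score of each library as covariates, no member was called in Δmetr-1 (0, with 0 members at an unadjusted p under 0.05 in that fit), and the change turned to 0.41 for cyp-31A2 and 1.60 for cyp-31A3, while it was -1.02 for cyp-31A5 (limma adjusted p = 1 for all 3). The share of all genes called in this fit is not given. The scores come from the same libraries, and the oocyte score differed between these groups, so this fit cannot separate germline content from the treatment. The part of germline content in the change of the cyp-31A genes was not tested. The count of 3 fell to 0 without either Δmetr-1 RNAi library and to 1 without replicate 1 of Δmetr-1 on vector, the library with the highest oocyte score. For these refits the share of all genes called is not given, so the counts are not results about the members.

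**Figure D2:**
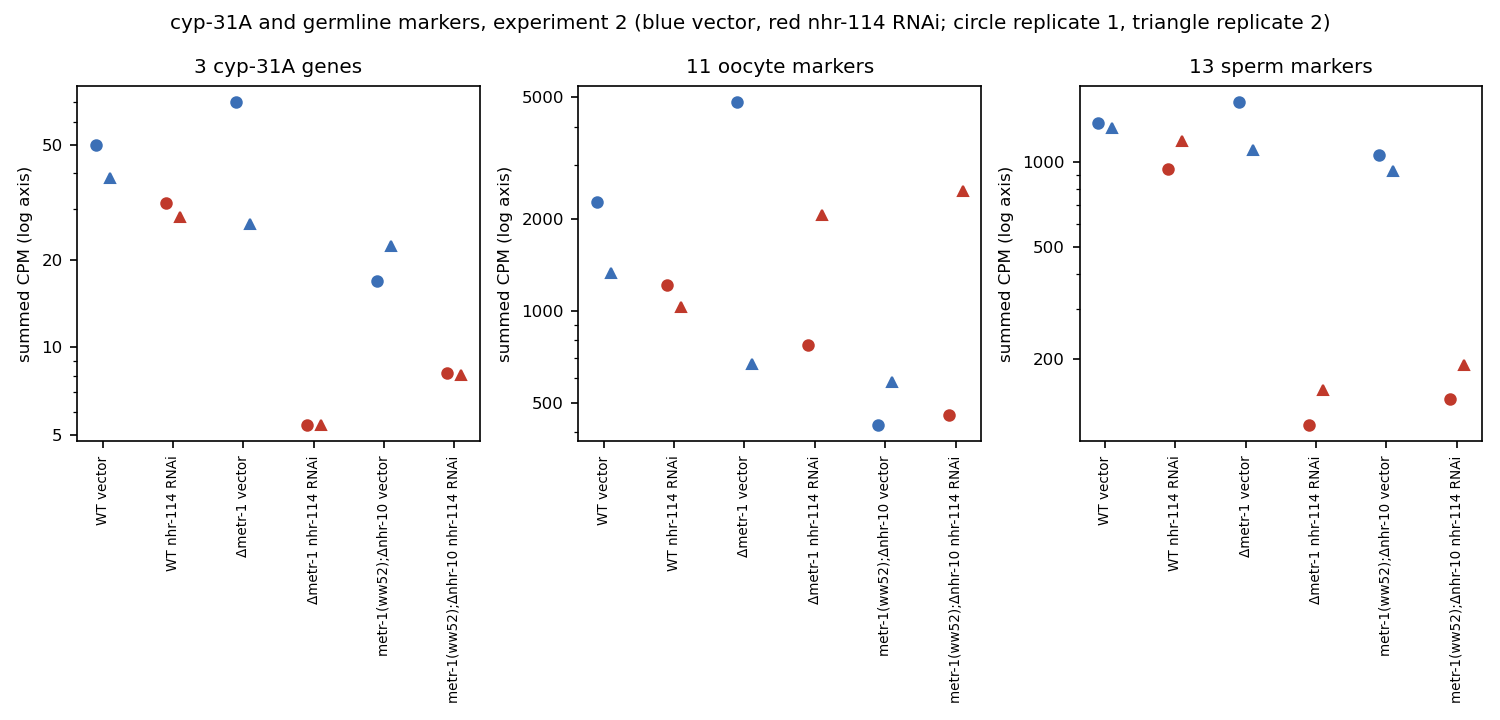
Summed level in CPM on a log axis of the 3 cyp-31A genes, 11 oocyte markers and 13 sperm markers in each library of experiment 2, with vector in blue, nhr-114 RNAi in red, and replicate 1 and replicate 2 as circle and triangle. The cyp-31A sum and the sperm sum are lowest in the mutants on nhr-114 RNAi, whereas the oocyte sum is lowest at 423 CPM in a vector library. The mean log2(CPM + 1) of the oocyte markers, not drawn, was lowest at 3.93 in replicate 1 of Δmetr-1 on nhr-114 RNAi.

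In experiment 1 no cyp-31A gene was called, and the replicates of a group differed widely. cyp-31A5 was at 20.5 and 7.68 CPM in untreated wild type, 10.8 and 17.3 CPM with methionine, 7.65 and 37.01 CPM in untreated Δnhr-114 and 26.0 and 13.2 CPM in Δnhr-114 with methionine. In each of the 4 groups the replicate with the higher level was also the one with the higher oocyte score. cyp-13A2 went the other way in each of these groups, at 9.33 and 44.3 CPM, 38.4 and 5.04 CPM, 21.5 and 4.22 CPM, and 12.5 and 17.5 CPM in the same order. These relations were noticed in the values and were not tested.

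The only member called in a comparison of RNAi with vector in metr-1(ww52);Δnhr-10 was cyp-33C8, a CYP2-type gene on chromosome V (3800782 to 3803542, reverse strand, WBcel235). It was at 25.5 and 58.4 CPM on nhr-114 RNAi and at 5.90 and 5.99 CPM on vector. The groups did not overlap, and the log2 change was 2.51 (SE 0.43, limma adjusted p = 0.00574). In Δmetr-1 it was at 42.99 and 44.1 CPM on RNAi and 11.4 and 10.3 CPM on vector, a log2 change of 1.91 (SE 0.43) that just missed the threshold (limma adjusted p = 0.0102). edgeR on the recovered reads did call it there (adjusted p = 0.00675), as 1 of 4 members where it called 10.8% of the 15642 genes left by its own filter. In wild type it was at 4.05 and 2.59 CPM on RNAi and 6.21 and 2.59 CPM on vector, with a change of -0.26 (SE 0.43, limma adjusted p = 0.998).

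The difference of the RNAi response from that of wild type was 2.77 (SE 0.61) for cyp-33C8 in metr-1(ww52);Δnhr-10 and 2.16 (SE 0.61) in Δmetr-1. Limma did not call either interaction (adjusted p = 0.0537 and 0.0608), and 0 of 26 members were called in either, where 0.0173% and 0.0347% of all genes were, with 7 members in each at an unadjusted p under 0.05 (19.5% and 27% of all genes). edgeR called 0 members in either. DESeq2 on the recovered reads called cyp-33C8 in both and cyp-32A1 in the first, where it called 1.17% and 2.21% of the 36936 genes with any read. Both interactions use the same wild type libraries. Without the 3 RNAi libraries whose nhr-114 level went against the label, the change in metr-1(ww52);Δnhr-10 was 3.10 and was no longer called (limma adjusted p = 0.0579), with 1 library left in each RNAi group. With both stage covariates it was 2.29 (limma adjusted p = 1). The count of 1 fell to 0 without any 1 of the 4 libraries of this strain or either Δmetr-1 RNAi library, and rose to 2 without either Δmetr-1 vector library. Here too the share of all genes called in the refits is not given, so the counts are not results about the members.

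**Figure D3:**
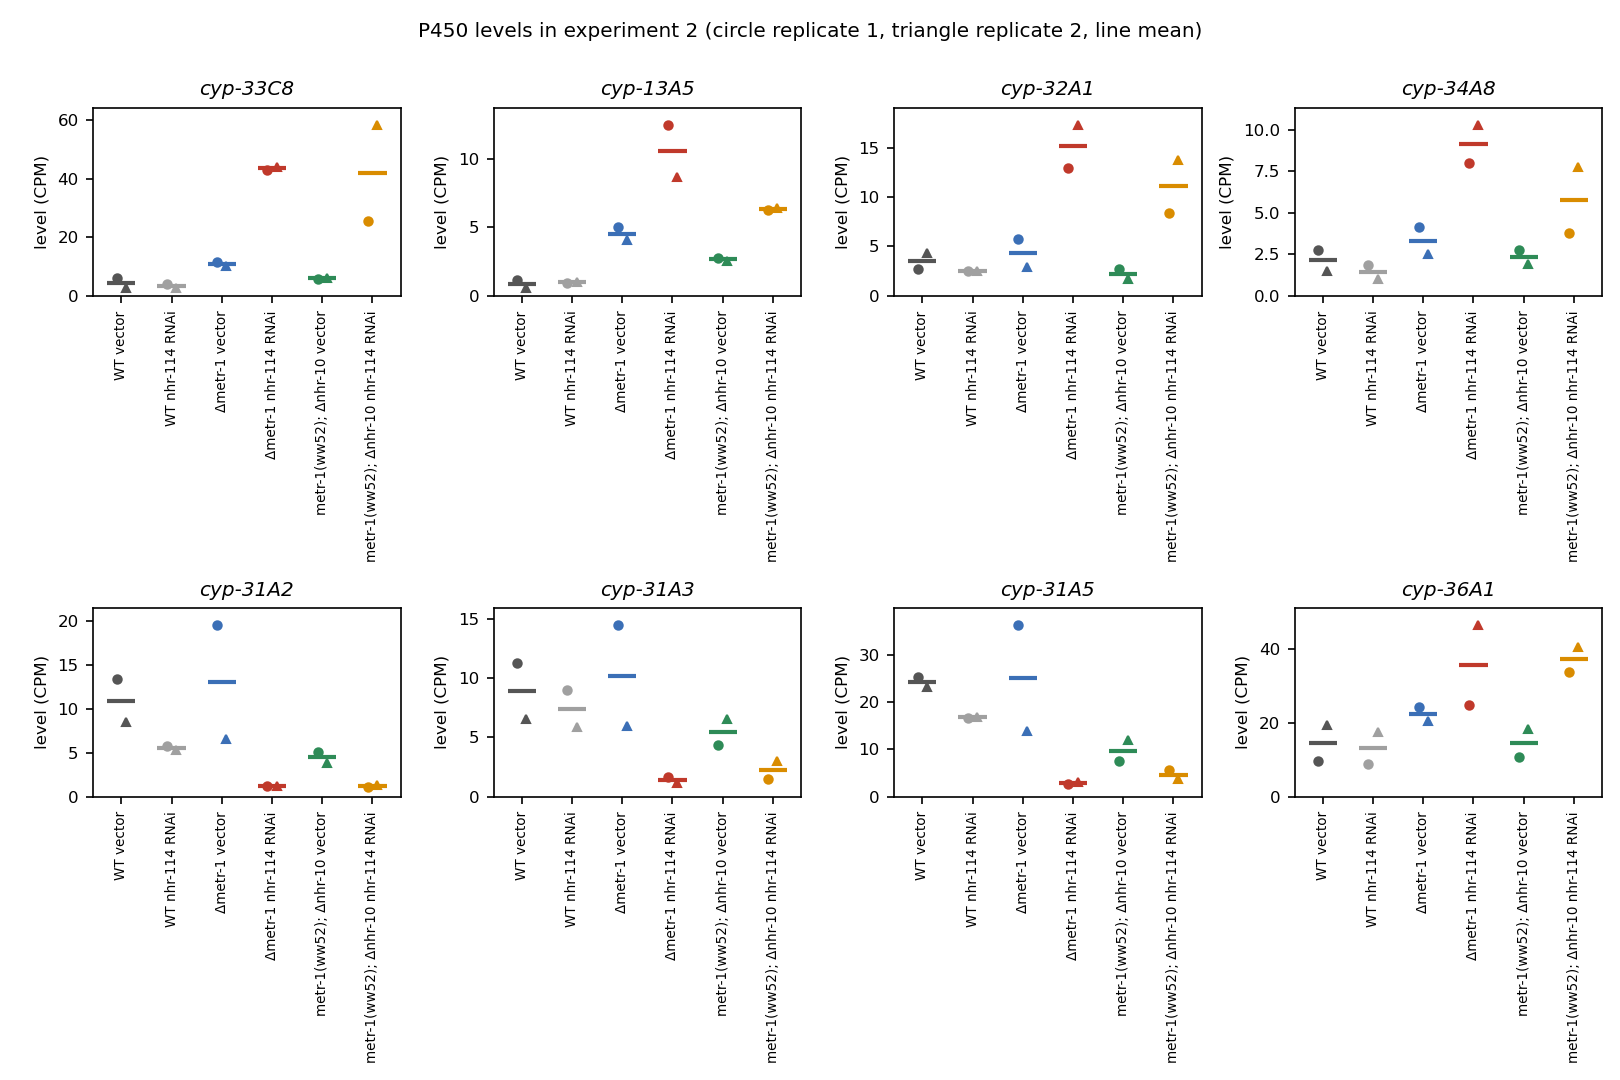
Level in CPM of 8 P450 genes in each library of experiment 2, with a circle for replicate 1, a triangle for replicate 2 and a line at the mean of each group. cyp-33C8, cyp-13A5, cyp-32A1 and cyp-34A8 are highest in Δmetr-1 or metr-1(ww52);Δnhr-10 on nhr-114 RNAi, and the 3 cyp-31A genes are lowest there.

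Of the other members, most CYP2-type genes had positive changes on nhr-114 RNAi in the mutants. In Δmetr-1 the 12 tested CYP2-type genes all had a positive log2 change with a median of 0.92, and 0 were called. In metr-1(ww52);Δnhr-10, 10 of 12 were positive with a median of 0.94 and 1 was called. Over all 26 tested members the medians were 0.76 and 0.30, against -0.11 and -0.09 over all genes tested, and over all 74 members they were 0.21 and 0.22. These numbers contain the genes that met the filter only through the mutant RNAi groups.

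A few genes had positive changes in both strains without passing the threshold. cyp-32A1, a CYP4-type gene, was at 12.9 and 17.3 CPM in Δmetr-1 on RNAi against 5.72 and 2.91 CPM on vector (log2 change 1.64, SE 0.39, limma adjusted p = 0.0123). In metr-1(ww52);Δnhr-10 it was at 8.36 and 13.8 CPM against 2.75 and 1.68 CPM (1.89, SE 0.39, limma adjusted p = 0.0117). cyp-14A5, of a xenobiotic-inducible subfamily, was at 15.7 and 22.3 CPM on RNAi against 4.33 and 6.61 CPM on vector in metr-1(ww52);Δnhr-10 (1.63, SE 0.37, limma adjusted p = 0.0183). In Δmetr-1 it was at 14.4 and 8.23 CPM against 4.01 and 5.83 CPM (1.03, SE 0.37, limma adjusted p = 0.0645). cyp-43A1, of the CYP3 type, was at 12.1 and 20.3 CPM against 6.69 and 7.49 CPM in Δmetr-1 (1.05, limma adjusted p = 0.0355) and at 15.5 and 21.3 CPM against 6.29 and 7.05 CPM for the same contrast in the metr-1(ww52);Δnhr-10 strain (1.32, limma adjusted p = 0.0235). In none of these 6 comparisons did the groups overlap. Such separation was common: in Δmetr-1 it held for 16 members higher and 3 lower, and for 28.6% of all genes higher and 36.7% lower. For the strain metr-1(ww52);Δnhr-10 it held for 12 members higher and 4 lower, and for 29.8% and 37.6% of all genes. cyp-37B1, a CYP4-type gene, had the largest positive change of any member in Δmetr-1, at 23.7 and 10.97 CPM against 1.82 and 2.58 CPM on vector (2.43, SE 0.76, limma adjusted p = 0.0417).

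cyp-36A1, which in the worm acts downstream of the hypoxia factor HIF-1, was the member with the highest mean level in experiment 2. It was at 24.9 and 46.5 CPM on RNAi against 24.3 and 20.5 CPM on vector in Δmetr-1, and at 33.9 and 40.6 CPM against 10.6 and 18.3 CPM in the other mutant strain. On the log2 scale the changes were 0.59 (SE 0.46, limma adjusted p = 0.347) and 1.35 (SE 0.46, limma adjusted p = 0.0766), and neither was called. Against wild type on RNAi (8.72 and 17.6 CPM) it differed by 1.38 in Δmetr-1 and 1.5 in the strain metr-1(ww52);Δnhr-10 (limma adjusted p = 0.0432 and 0.0368). The gene overlaps figo-1 on the opposite strand, and the sources do not say if strand was used in counting. cyp-44A1, the mitochondrial-type enzyme, was at 11.3 and 6.85 CPM on RNAi against 30.7 and 8.57 CPM on vector in Δmetr-1 and overlapped between these groups.

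**Figure D4:**
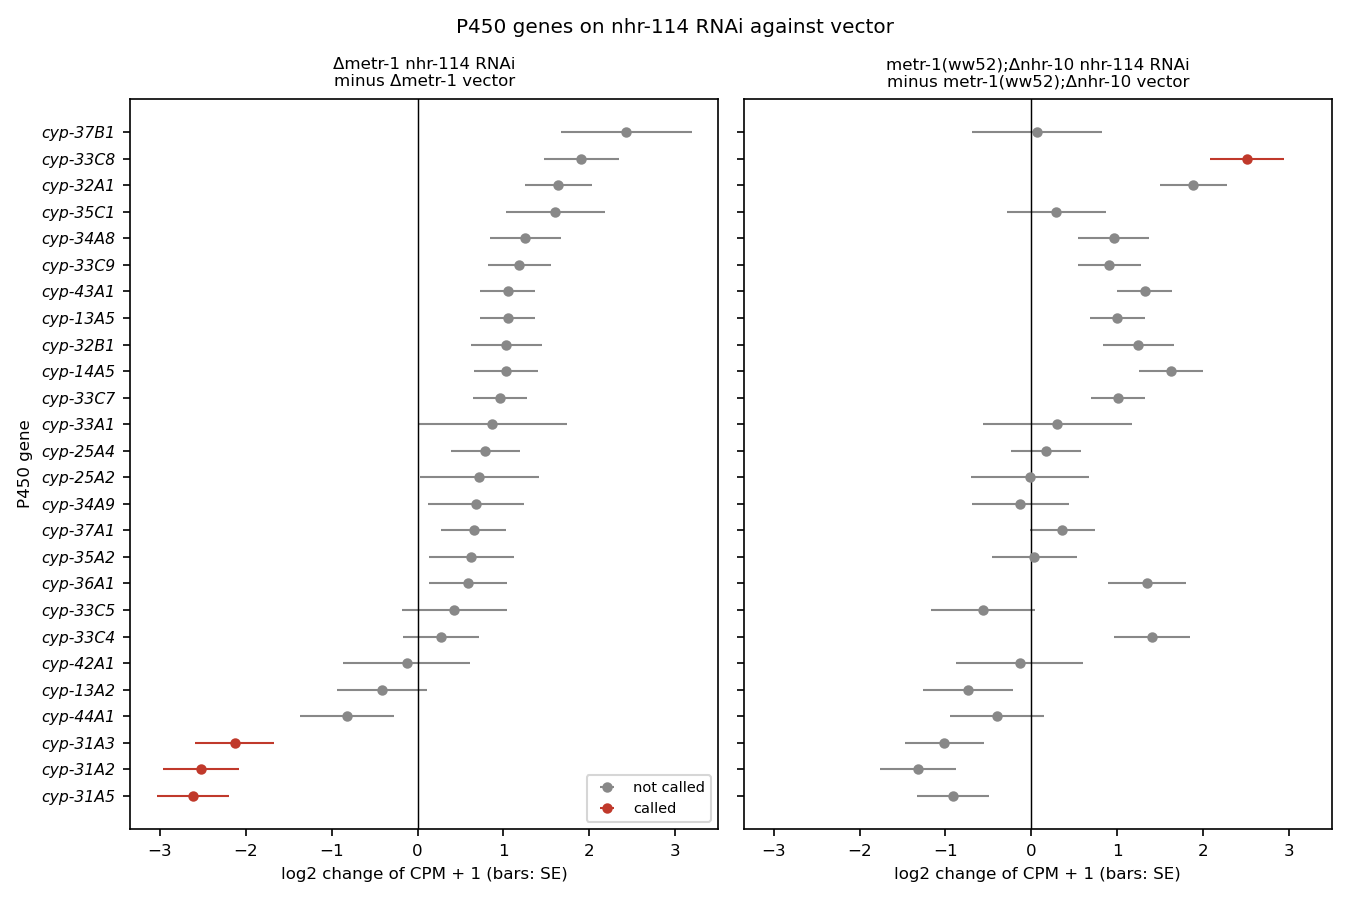
Change in log2(CPM + 1) between nhr-114 RNAi and vector in Δmetr-1 (left) and metr-1(ww52);Δnhr-10 (right) for the 26 tested P450 genes, with the standard error as bars and called genes in red. The 3 cyp-31A genes are the lowest points on the left, and cyp-33C8 is the highest on the right at 2.51.

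The mutants were next compared with wild type among the libraries labelled nhr-114 RNAi, where more members were called. In Δmetr-1, 5 of 26 were called, 4 higher and 1 lower, where 15.9% of all genes were called (5.87% higher and 10% lower). In metr-1(ww52);Δnhr-10, 3 of 26 were called, all higher, where 12.3% of all genes were called (5.17% higher and 7.1% lower). Both comparisons use the same pair of wild type RNAi libraries, so they are not independent of each other. Among the called members, cyp-13A5 in both comparisons and cyp-34A8 in Δmetr-1 had met the filter only through the mutant RNAi groups compared here. cyp-32A1, called in both, reached 5 CPM outside those groups only in a single library of Δmetr-1 on vector, so it too needed them to meet the filter. The calls of these genes rest in part on that selection, and the counts are not support for a direction.

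cyp-33C8 had the largest change in both, at 3.39 (SE 0.43, limma adjusted p = 0.000478) in Δmetr-1 and 3.22 (SE 0.43, limma adjusted p = 0.000846) in metr-1(ww52);Δnhr-10. From the values above, the means of 43.5 and 41.9 CPM in the mutants compare with 3.32 CPM in wild type. cyp-13A5, of the CYP3 type and part of the 8-gene cluster on chromosome II (9798277 to 9800362), reached 12.5 and 8.66 CPM in Δmetr-1 on RNAi. The metr-1(ww52);Δnhr-10 libraries held 6.27 and 6.37 CPM, and those of wild type 0.934 and 1.04 CPM. Its log2 changes were 2.52 (SE 0.32, limma adjusted p = 0.000449) and 1.88 (SE 0.32, limma adjusted p = 0.00251). All 4 mutant libraries lay above both wild type libraries.

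The wild type RNAi libraries held 2.49 and 2.52 CPM of cyp-32A1, below all 4 mutant RNAi libraries given above. The log2 changes were 2.19 (SE 0.39, limma adjusted p = 0.00246) in Δmetr-1 and 1.75 (SE 0.39, limma adjusted p = 0.00934) in metr-1(ww52);Δnhr-10. The second call was lost under edgeR (adjusted p = 0.0111) and under most other alternatives, with limma adjusted p = 0.0101 at a pseudocount of 0.5 and 0.023 without the filter. cyp-34A8, a CYP2-type gene on chromosome V (3964797 to 3967823), had 8.04 and 10.3 CPM in Δmetr-1, above the 1.87 and 1.04 CPM of wild type, with the metr-1(ww52);Δnhr-10 libraries between at 3.76 and 7.79 CPM. It was called in Δmetr-1 (2.06, SE 0.41, limma adjusted p = 0.00452), whereas in metr-1(ww52);Δnhr-10 the change was 1.42 (SE 0.41). The member called lower was cyp-31A5 in Δmetr-1, from 16.7 and 16.9 CPM in wild type (-2.21, SE 0.42, limma adjusted p = 0.00361).

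The sperm markers fell in these comparisons too, with 10 of 12 tested called lower in each mutant, and the part of that shift in the members' changes was not tested. No member was called with both stage covariates (0 in each comparison). The share of all genes called in that fit is not given, so the 0 is not a result about the members. A fit without the 3 RNAi libraries numbered 1 left 1 library in each RNAi group, and only its changes are given here. For cyp-33C8 the change was 3.32 and 3.26 with the covariates and 3.65 and 4.05 without those libraries, in Δmetr-1 and the other mutant. With the covariates it was 5.68 and 3.56 for cyp-13A5 and 1.97 and 1.71 for cyp-32A1, while in Δmetr-1 it was 0.75 for cyp-34A8 and -0.90 for cyp-31A5. Without those libraries it was 2.24 and 1.86 for cyp-13A5, 2.38 and 2.07 for cyp-32A1, 2.47 for cyp-34A8 and -2.13 for cyp-31A5. The count of 5 in Δmetr-1 fell to 2 or 3 without a wild type RNAi library or either Δmetr-1 RNAi library and rose to 7 without either Δmetr-1 vector library. The count of 3 in metr-1(ww52);Δnhr-10 fell to 0 without replicate 2 of wild type on RNAi, to 1 without its replicate 1 or either library of the mutant on RNAi, and rose to 5 without either Δmetr-1 vector library. How many of all genes these refits called is not given, so the moves are not results about the members.

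On vector, where the labels differ by genotype alone, no member was called in either mutant. Of all genes, 0.113% were called for Δmetr-1 (all higher) and 0.26% for the strain metr-1(ww52);Δnhr-10 (0.243% higher). At an unadjusted p under 0.05 there were 5 and 3 members, where 8.42% and 13.3% of all genes were. edgeR and DESeq2 called 0 members in either comparison. The lowest adjusted p among members was that of cyp-13A5 in both. Its levels were 4.99 and 4.08 CPM in Δmetr-1, 1.15 and 0.574 CPM in wild type, and 2.75 and 2.56 CPM in the strain metr-1(ww52);Δnhr-10. Relative to wild type the difference was 1.58 (SE 0.32, limma adjusted p = 0.0906) and 0.99 (SE 0.32, limma adjusted p = 0.254), on few reads. cyp-33C8 was higher in both libraries of Δmetr-1 than in wild type (1.22, SE 0.43, limma adjusted p = 0.485). The level of cyp-31A5 was lower in metr-1(ww52);Δnhr-10 (7.47 and 11.9 CPM against 25.3 and 23.3 CPM), with a change of -1.27 (SE 0.42, limma adjusted p = 0.269). In that comparison 11 of 11 oocyte markers were lower (median log2 change -1.80) and 13 of 13 cuticle and molting markers were higher (2.22), with 0 called. With both stage covariates the change of cyp-31A5 was -0.71, and the part of stage in it was not tested.

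Experiment 1 asked whether the response to low S-adenosylmethionine needs nhr-114, with methionine given as its precursor, and limma called none of the 19 tested members in any of the 5 comparisons. It called none of the 10948 genes tested either (0%). At an unadjusted p under 0.05 there was 1 member for methionine in wild type (1.15% of all genes), 2 for methionine in Δnhr-114 (4.36%), 2 for Δnhr-114 against wild type without methionine (4.53%), 0 with methionine (0.859%) and 1 for the interaction (2.14%). edgeR called 0 members in each. DESeq2 called 1 for methionine in Δnhr-114 (cyp-13A5, where it called 0.109% of genes) and 1 for untreated Δnhr-114 against wild type (cyp-33C8, where it called 0.218%). Those DESeq2 shares are of the 35784 genes with any read, not of the 10948 that met the filter.

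cyp-13A5 reached 5 CPM only in the 4 untreated libraries, so it entered the test in this experiment through the groups where it was high, and its values with methionine are given as a description. It was at 9.04 and 8.78 CPM in untreated wild type and at 2.91 and 1.44 CPM with methionine. In the Δnhr-114 mutant the untreated level was 16.7 and 8.82 CPM, against 2.16 and 2.16 CPM with methionine. By that selection the untreated libraries lay above those with methionine, and the wild type replicate 2 value with methionine rested on 2 reads. The log2 changes were -1.68 (SE 0.44, limma adjusted p = 1.00) and -2.06 (SE 0.44, limma adjusted p = 0.584), and the interaction was -0.38 (SE 0.62).

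cyp-33C8 was at 39.7 and 20.1 CPM in untreated Δnhr-114, against 2.17 and 6.08 CPM in untreated wild type. With methionine it was at 7.35 and 4.08 CPM in Δnhr-114 and 4.66 and 5.04 CPM in wild type. Untreated Δnhr-114 lay above the other 6 libraries, which overlapped with each other. The change from wild type was 2.63 (SE 0.53, limma adjusted p = 0.276, DESeq2 adjusted p = 0.00706) without methionine and 0.16 (SE 0.53, limma adjusted p = 1.00) with it. The change with methionine in Δnhr-114 was -2.17 (SE 0.53, limma adjusted p = 0.721), and the interaction was -2.47 (SE 0.76, limma adjusted p = 1.00).

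The oocyte scores of the untreated Δnhr-114 replicates were 4.98 and 8.53, and their part in these values was not tested. cyp-37B1, a CYP4-type gene, was at 40.5 and 3.67 CPM in untreated Δnhr-114 and at 3.47 and 0.928 CPM in untreated wild type. Its log2 change of 2.24 (SE 1.15, limma adjusted p = 0.991) rested mainly on replicate 1 of Δnhr-114. With methionine the wild type libraries held 3.16 and 16.6 CPM and the Δnhr-114 libraries 16.05 and 13.7 CPM. cyp-44A1 was also higher in both libraries of untreated Δnhr-114 (14.3 and 27.7 CPM) than in untreated wild type (13.5 and 12.9 CPM), by 0.56 (SE 0.43, limma adjusted p = 0.991). Its annotation overlaps npp-24 on the same strand.

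**Figure D5:**
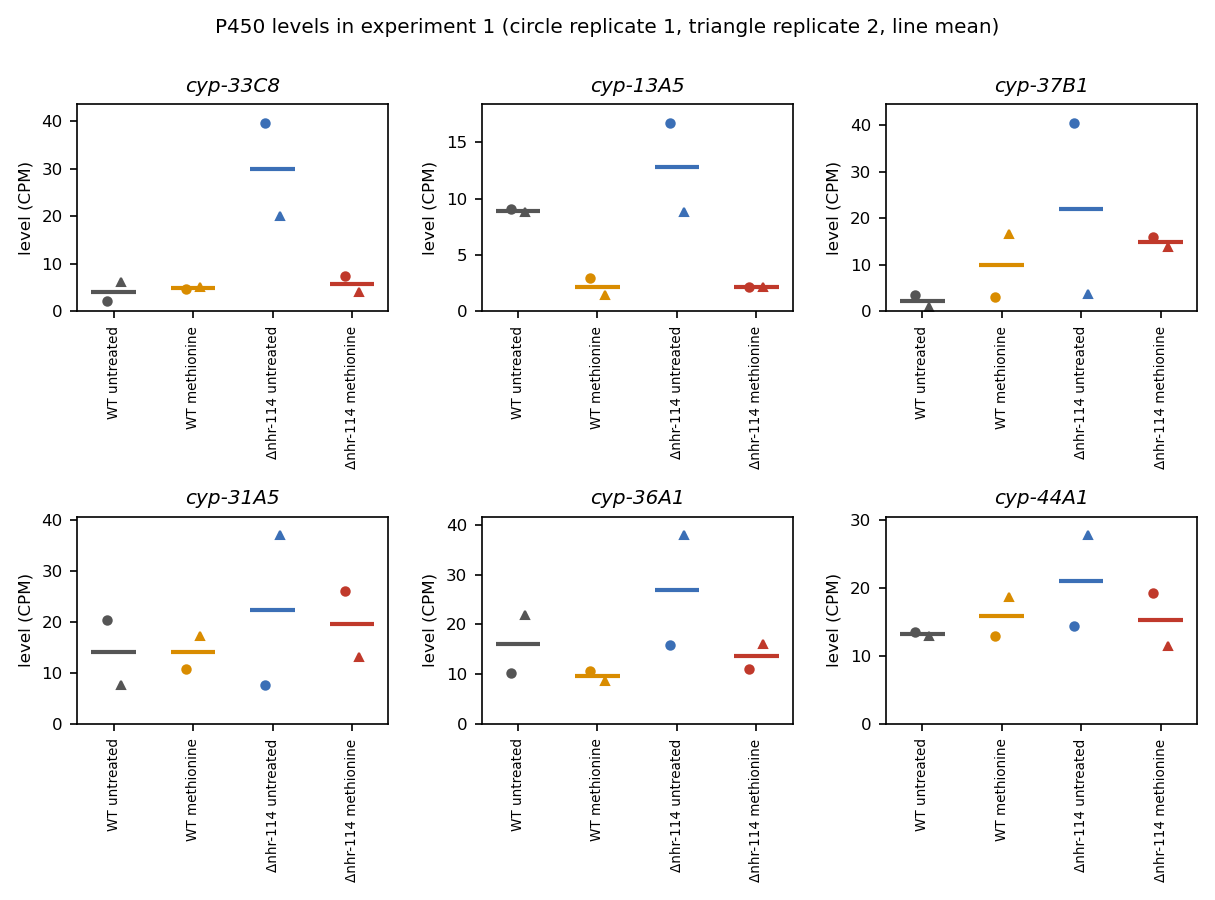
Level in CPM of 6 P450 genes in each library of experiment 1, with a circle for replicate 1, a triangle for replicate 2 and a line at the mean of each group. cyp-33C8 stands out in both libraries of untreated Δnhr-114, cyp-13A5 is at 2.91 CPM or less in the 4 libraries with methionine, and the other genes overlap between at least some groups.

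The remaining xenobiotic-inducible members were mostly near the limit of detection. cyp-35A2, which responds to many drugs and pollutants, was at 5.74 to 14.4 CPM in experiment 1 and at 2.19 to 9.96 CPM in experiment 2, and it was called nowhere. cyp-35A1, a close neighbour of cyp-35A2, stayed at or below 0.627 CPM in every library, and cyp-13A7 at or below 3.65 CPM. cyp-35C1, at 11.6 to 31.3 CPM in experiment 1, was at 10.02 and 8.95 CPM on RNAi against 1.09 and 4.66 CPM on vector in Δmetr-1 (log2 change 1.604, SE 0.58, limma adjusted p = 0.0633). Of the genes known to make eicosanoids from polyunsaturated fatty acids, cyp-29A3 was at 3.18 to 7.27 CPM in experiment 1 and cyp-33E2 at 0 to 3.38 CPM.

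In wild type a single library stood apart. cyp-33A1 was at 64.0 and 5.71 CPM on nhr-114 RNAi and 5.44 and 4.52 CPM on vector, a change of 1.81 on the log2 scale (SE 0.87; limma adjusted p = 0.998) that rested on replicate 1. The same library held 14.8 CPM of cyp-35B1, which was at or below 2.75 CPM in all other libraries, and 19.5 CPM of cyp-25A2. This is one of the 3 RNAi libraries with a high nhr-114 level, and the P450 sum of 325 CPM in it compares with 194 CPM in its replicate.

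Genes that P450 enzymes depend on were examined as a list of 11 for electron transfer and haem supply, all tested in experiment 2. One was called in Δmetr-1 on RNAi against vector, 1 in metr-1(ww52);Δnhr-10, 1 in Δmetr-1 against wild type on RNAi and 2 in the other mutant against wild type on RNAi, all higher. In the same comparisons 12.5%, 4.76%, 15.9% and 12.3% of all genes were called, and counts of 1 or 2 in 11 are near that background. The gene called in all 4 was hrg-2, which acts in haem transport in the hypodermis. On RNAi it reached 8.76 and 9.74 CPM in the Δmetr-1 libraries and 7.74 and 10.2 CPM in the strain metr-1(ww52);Δnhr-10, and it was at 0.646 to 2.80 CPM in the 6 vector libraries (log2 changes 2.03 and 2.20 on RNAi against vector, limma adjusted p = 0.00679 and 0.00883). It reached 5 CPM only in those 4 mutant RNAi libraries, so it was tested only because it was high there, and its calls rest on that selection. The other was cytb-5.1, a cytochrome b5 that can pass electrons to P450 enzymes, whose level on RNAi was 732 and 1501 CPM in the strain metr-1(ww52);Δnhr-10 and 271 and 325 CPM in wild type (1.82, limma adjusted p = 0.00876). emb-8, the P450 reductase, was at 112 to 201 CPM in all libraries of the mutants and was called nowhere. All 11 genes of the list had positive changes on RNAi against vector in each mutant (medians 0.854 and 0.852). In wild type 10 of 11 were positive (0.263). Over all genes tested these medians were -0.11, -0.09 and -0.03. Against wild type on RNAi, 11 of 11 were positive in Δmetr-1 and 9 of 11 in the other mutant. The direction of the list was not tested.

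Of 11 known regulators of detoxification genes, 10 were tested in experiment 2, and 2 were called, both higher in both mutants against wild type on RNAi, where 15.9% and 12.3% of all genes were called. nhr-49, a nuclear hormone receptor of fat metabolism, had 227 and 281 CPM in Δmetr-1, 253 and 253 CPM in the other mutant strain and 118 and 88.1 CPM in wild type (1.30 in both, limma adjusted p = 0.00278 and 0.00350). pqm-1, a zinc finger transcription factor of stress responses, rose by 1.595 and 2.79 (limma adjusted p = 0.00457 and 0.000564). None of the 11 was called in either comparison of RNAi with vector in a mutant (0 of 10 tested).

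cyp-33C8 was compared with other genes by the shape of its levels. The limit of 20 CPM left cyp-36A1 (22.9 CPM) as the only other member, so the search could hardly return a gene of the family. Over the 12 libraries of experiment 2 and 5894 genes averaging at least 20 CPM, the highest Pearson correlations of log2(CPM + 1) were with F41E7.7 (r = 0.983), pqn-92 (r = 0.981) and Y4C6B.7 (r = 0.98), as a description over libraries that fall into groups. F41E7.7 was at 32.6 to 44.1 CPM in the mutants on RNAi and 9.71 to 17.0 CPM in the other 8 libraries. In untreated Δnhr-114 it was at 21.9 and 22.95 CPM, against 20.0 and 17.1 CPM in untreated wild type, where cyp-33C8 differed by a wider margin.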

How the data were processed

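The authors trimmed CEL-seq2 reads with trimmomatic 0.32, aligned them with STAR, counted 3′ ends with ESAT against a WormBase gene set and tested counts with DESeq2. The deposited tables are named TPM, but the values the authors deposited are CPM with no term for gene length, and 100% of them were whole multiples of 1 step per library (within 0.01), which gave back whole reads. As CPM are not counts, limma 3.58.1 (R 4.3.3; group means fitted to each experiment as a whole, trend and robust, 2-sided) on log2(CPM + 1) was the main test, with 4 and 6 residual degrees of freedom. edgeR 4.0.16 and DESeq2 1.42.0 ran on recovered reads, where edgeR called 1694 and 412 genes for nhr-114 RNAi in Δmetr-1 and in the other mutant. Positions are from WBcel235 (Ensembl release 115). 14 comparisons were made, 3 of them interactions. Genes given in full were those called, the 6 with the highest mean per experiment, and up to 3 per direction and comparison that did not overlap and averaged at least 20 CPM in the higher group. Others named for their level or role were chosen after their values were seen. The members, gene lists and tests were chosen with earlier results of these data known. Clan groups were assigned from the family names. The study calls replicates biological without giving their cultures, so p-values measure the spread between these libraries. limma, edgeR and DESeq2 were also run on simulated counts, for the first comparison of each experiment only. The other steps were not tested on simulated data.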

Additional observations from a re-analysis of the deposited data

How the results depend on the processing

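Counts of called members moved with the test. DESeq2 on recovered reads called 6 members for nhr-114 RNAi in Δmetr-1 (against 3), 3 in metr-1(ww52);Δnhr-10 (against 1), 6 for metr-1(ww52);Δnhr-10 against wild type on RNAi (against 3), 1 and 2 in the RNAi interactions of the same strains in that order (against 0), 1 for methionine in Δnhr-114 and 1 for untreated Δnhr-114 (against 0). In the RNAi interactions DESeq2 called 2.21% and 1.17% of the 36936 genes with any read, in the same order. Limma called 0.0347% and 0.0173% of the 11543 that met the filter, so the shares are over unlike sets. DESeq2 counts of members are likewise not out of the 26 that limma tested. For its other comparisons in experiment 2 the share of all genes called by DESeq2 is not given. Those higher counts of members have no background and are not results about the members. Fits on the compared libraries alone called 0 in each mutant on RNAi against vector, and the fit without the filter called 0 in metr-1(ww52);Δnhr-10. The fit with both stage covariates and the one without the RNAi libraries numbered 1, which was chosen after seeing the data, called 0 in all 4 comparisons that had calls. Both leave fewer residual degrees of freedom, and the cause was not tested further. In Δmetr-1 on RNAi the covariates reversed cyp-31A2 (0.41), cyp-31A3 (1.60) and cyp-36A1 (-0.60). Leaving out 1 library at a time gave 0 to 3 called members for RNAi in Δmetr-1, 0 to 2 in metr-1(ww52);Δnhr-10, 2 to 7 for Δmetr-1 against wild type on RNAi, 0 to 5 for metr-1(ww52);Δnhr-10 against wild type on RNAi, 0 to 1 for the interaction with Δmetr-1 and 0 to 0 elsewhere. For these alternative limma fits the share of all genes called is not given, so their counts are not results about the members. Of 504 values of named genes under alternatives, 410 kept direction and side of the threshold, 83 were no longer called, 8 became called and 3 reversed.

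Groups share replicate numbers, but the numbers were not found to pair the samples: replicate differences correlated between groups at -0.655 to 0.311 in experiment 1 and -0.467 to 0.681 in experiment 2. With a replicate block the counts were 3, 1, 5 and 2 in the comparisons that had 3, 1, 5 and 3, and 0 elsewhere. The share of all genes called with the block is not given. Low depth limits the values of members under about 5 CPM, most of all in wild type replicate 2 with methionine, where 3 reads stand for 2.16 CPM.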
